A study of Mus musculus with 13 samples.

Results

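The urea cycle genes are the 7 rows of the liver count table whose mouse symbol is Nags, Cps1, Otc, Ass1, Asl, Slc25a15 or Slc25a13, out of 53392 genes listed. All 7 were found, and all 7 were among the 14317 genes that passed the filter on low counts. They were followed in whole-liver RNA of 13 female mice aged 8 to 14 weeks, every one fed alcohol as 28% of calories for 4 weeks. Etoh-Dox, an alcohol diet with doxycycline (Dox) at 200 mg/l, was given to 4 ASAH- mice and 5 ASAH+ mice, and Etoh, the same diet without Dox, was given to 4 ASAH+ mice. Hepatocytes of all 3 groups make the Dox-dependent activator rtTA, because Albumin-Cre removes the stop from Rosa26-loxP-stop-loxP-rtTA (both homozygous). The genotypes differ in TRE-ASAH1, a transgene for the enzyme ASAH1 that rtTA switches on with Dox and that ASAH- mice lack. Its product, acid ceramidase, acts in lysosomes, where it takes the fatty acid off ceramide and leaves sphingosine. The alcohol-fed ASAH- mouse without Dox and the mouse without alcohol were not analysed here, so no comparison below measures the effect of alcohol itself, and every comparison with the Etoh group is also one between mice with and without Dox. For ASAH+ mice the titles give the opposite Dox status from the descriptions and the induction labels, and the latter were followed.

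The urea cycle turns ammonia released from amino acids into urea and in mammals runs in full mainly in the liver, above all in periportal hepatocytes. In the mitochondrion, N-acetylglutamate synthase (Nags) makes the obligatory activator of carbamoyl phosphate synthetase (Cps1), the rate-limiting enzyme, and ornithine transcarbamylase (Otc) joins carbamoyl phosphate to ornithine to give citrulline. In the cytosol, argininosuccinate synthase (Ass1) couples citrulline to aspartate, and argininosuccinate lyase (Asl) splits the product into arginine and fumarate. The carrier Slc25a15 (ORC1) returns ornithine to the mitochondrion in exchange for citrulline, and the carrier Slc25a13 (citrin) exports the aspartate that Ass1 uses. The amount of these enzymes is known to follow protein intake, fasting, glucagon and glucocorticoids, mainly through transcription.

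On the mouse genome GRCm38 the genes lie apart. Cps1 spans 67123026 to 67231259 on the plus strand of chromosome 1, with 38 exons in its longest protein-coding transcript, and Ass1 spans 31470207 to 31520672 on the plus strand of chromosome 2. Asl lies on the minus strand of chromosome 5 from 130011258 to 130029247, Slc25a13 on the minus strand of chromosome 6 from 6041218 to 6217173 and Slc25a15 on the minus strand of chromosome 8 from 22375551 to 22398597. Nags occupies 102145513 to 102149477 on the plus strand of chromosome 11 and Otc 10252305 to 10321024 on the plus strand of chromosome X. Of the 31-base words of Ass1 transcripts, 43.1% also occur in the pseudogene Gm5424, so salmon had to divide some reads between them. The table gives Gm5424 only 38 to 90 counts per mouse, against 58561 to 107683 for Ass1, so the count of the pseudogene equals at most 0.111% of that of Ass1. Nags overlaps the antisense gene Gm11586, which had 7 to 19 counts per mouse against 929 to 1992 for Nags in these strand-marked libraries. The other members shared at most 0.765% of their words with another gene.

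Because 4 of the members varied together (described further on), the bases ahead of their start sites are shown for a pair of these (Ass1 and Slc25a15). They are also shown for a pair outside that group (Otc, which followed it in part, and Slc25a13). The sequences are RefSeq promoter windows on GRCm38.p6, which were found for Ass1, Slc25a13, Slc25a15, Nags and Otc, 5 of the 7 members, and were read from 250 bases before the RefSeq start site, 5′ to 3′ along the gene. Bases inside an annotated transcript were left out, which shortened the Ass1 window to 187 bases. Capitals mark every match, on either strand, to any of the motifs searched. These were the GC box GGGCGG, to which Sp1 binds, the E-box CACGTG, read by clock and growth factors, and the D-box TTATGNAA, read by clock output factors such as Dbp. Further motifs were the CCAAT box, known for binding NF-Y, the TATA box TATAAA near many start sites, the pattern TTGCNNAA of C/EBP factors and the cyclic AMP element TGACGTCA (CRE). No motif contains another.
Ass1 (chr2:31470020-31470206, plus strand): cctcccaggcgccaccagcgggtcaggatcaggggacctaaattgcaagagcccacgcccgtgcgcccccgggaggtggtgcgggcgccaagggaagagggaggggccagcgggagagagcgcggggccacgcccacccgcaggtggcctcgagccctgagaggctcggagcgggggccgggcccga
Slc25a15 (chr8:22398622-22398871, minus strand, the outer of 2 start sites): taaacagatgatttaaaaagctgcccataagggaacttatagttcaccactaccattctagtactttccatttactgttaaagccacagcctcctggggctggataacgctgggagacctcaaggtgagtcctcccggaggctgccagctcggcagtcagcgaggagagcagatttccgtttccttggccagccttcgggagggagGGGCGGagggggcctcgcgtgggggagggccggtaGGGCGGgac
Otc (chrX:10252055-10252304, plus strand): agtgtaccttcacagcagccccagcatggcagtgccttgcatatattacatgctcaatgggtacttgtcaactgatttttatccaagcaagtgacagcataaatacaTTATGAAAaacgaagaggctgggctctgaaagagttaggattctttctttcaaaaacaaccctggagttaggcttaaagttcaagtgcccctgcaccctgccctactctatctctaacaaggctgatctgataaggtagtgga
Slc25a13 (chr6:6217174-6217423, minus strand): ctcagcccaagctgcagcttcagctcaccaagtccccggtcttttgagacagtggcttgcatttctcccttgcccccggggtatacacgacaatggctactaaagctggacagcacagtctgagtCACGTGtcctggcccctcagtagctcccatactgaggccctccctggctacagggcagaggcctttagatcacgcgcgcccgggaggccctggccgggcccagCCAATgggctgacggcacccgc
The Slc25a15 window held GC boxes at -44 to -39 and -9 to -4 relative to the start site. The Otc window held a D-box at -143 to -136. The Slc25a13 window held an E-box at -125 to -120 and a CCAAT box at -22 to -18. In the stretches not printed because they are transcribed, Ass1 held a GC box at -63 to -58 and an E-box at -36 to -31, and the window of the inner start site of Slc25a15 held an E-box at -77 to -72 and GC boxes at -201 to -196, -146 to -141, -90 to -85, -12 to -7 and -8 to -3, the last pair overlapping. The Nags window held GC boxes at -132 to -127 and -41 to -36. Among 32851 RefSeq windows of the same length, 6.02% held the E-box, 32.7% the GC box, 33.8% the CCAAT box and 3.07% the D-box, while 12.4% held the TATA box, 9.56% the C/EBP pattern and 1.55% the CRE, none of which was found in the members' windows. The match is of letters alone and says nothing about binding.

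Estimated counts on genes summed to 17819486 to 35358711 per mouse, with a median of 24454043, and levels are given as CPM, the count scaled to the TMM-normalized total of its mouse. As a check of the labels, Asah1, to which the transgene's reads map, averaged 12755 CPM in ASAH+ Etoh-Dox mice, against 49.4 CPM in ASAH- Etoh-Dox and 46.5 CPM in ASAH+ Etoh mice (log2 fold changes of 8.01 ± 0.20 and 8.10 ± 0.21 (SE), edgeR adjusted p of 1.24e-11 and 1.13e-11). Hepatocyte markers, of which 6 of 7 were in the table, summed to 86624 to 136719 CPM in every mouse. Of the pancreas markers, the summed level was at most 0.959 CPM and Pnlip was at 0. Of the 6 markers of small intestine and kidney, Sis, Umod and Slc12a1 were at 0. Their list still summed to 69.3 to 89.9 CPM in ASAH- Etoh-Dox, 73.0 to 117 CPM in ASAH+ Etoh-Dox and 59.3 to 77.9 CPM in ASAH+ Etoh mice. Most of this was Fabp2, at 59.2 to 116 CPM over all mice. All 5 red cell markers were higher in the groups on Dox than in the Etoh group with an unadjusted edgeR p under 0.05. Their summed level was 215 to 1714 CPM in ASAH- Etoh-Dox, 241 to 871 CPM in ASAH+ Etoh-Dox and 135 to 192 CPM in ASAH+ Etoh mice. Endothelial markers summed to 125 to 231, 108 to 150 and 139 to 191 CPM in the same order of groups, and none of these 6 markers was at 0. Since whole liver was measured, fewer hepatocytes and less RNA per hepatocyte cannot be told apart.

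The 7 genes together took 0.837 to 1.15% of all counts in ASAH- Etoh-Dox mice, 0.581 to 0.989% in ASAH+ Etoh-Dox mice and 0.865 to 1.38% in ASAH+ Etoh mice. Cps1 and Ass1 alone made up 77.6 to 85.5% of the members' counts in a mouse. Per kilobase of the longest protein-coding transcript, Ass1 had the highest level (2053 ± 462 CPM per kb, SD, n = 13), then Cps1 (841 ± 235), Asl (205 ± 53.9), Otc (173 ± 12.8), Slc25a15 (93.4 ± 37.7), Slc25a13 (80.6 ± 6.65) and Nags (26.6 ± 3.76). Ass1 exceeded Cps1, Cps1 exceeded Asl and Slc25a13 exceeded Nags in all 13 mice. Asl exceeded Otc in 10, and Otc exceeded Slc25a15 in 12 of 13 mice, so these neighbours overlap. Per kilobase of total exonic length Otc (122 CPM per kb) stood above Asl (102) and Slc25a13 (66.2) above Slc25a15 (56.9), so the order of these depends on the length used. The carriers Slc25a15 and Slc25a13 could not be ordered, as Slc25a15 was the higher in only 6 of 13 mice. The enzyme that makes the activator of Cps1 was the least abundant of these transcripts and the enzyme of the aspartate-using step the most abundant.

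**Figure D1:**
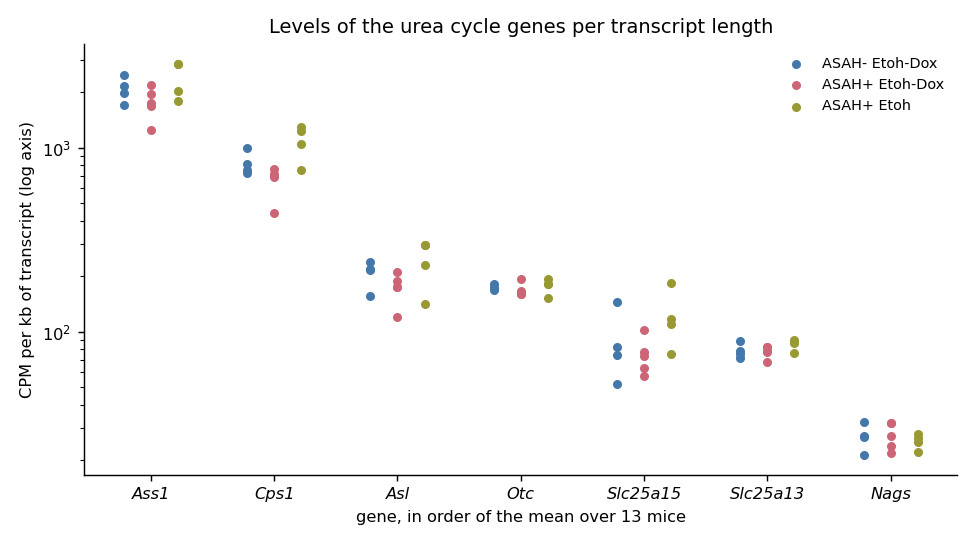
Level of each urea cycle gene per transcript length in every mouse (CPM per kb, log axis), with genes in order of their mean over 13 mice and colours for the 3 groups. Ass1 lies highest at a mean of 2053 CPM per kb and Nags lowest at 26.6 CPM per kb, and the points of Slc25a15 spread across those of Slc25a13.

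Dox induction of the transgene within ASAH+ mice was the comparison in which the urea cycle genes differed most, with lower levels in the induced mice. Of the 7 genes, 6 had a log2 fold change below 0 for ASAH+ Etoh-Dox versus ASAH+ Etoh, and the median over the members was -0.43, against 0.01 for all genes tested. With a surrogate variable for hidden variation in the model that median was -0.22. Cps1, Ass1, Slc25a15 and Asl, 4 of 7, were lower at an unadjusted edgeR p under 0.05, a mark reached in that direction by 3.24% of all genes. After Benjamini-Hochberg adjustment edgeR called 0 of 7 (0.014% of all genes were called), and limma-voom also called 0, whereas DESeq2 on all 13 mice called Cps1 lower, 1 of the 6 members to which it gave an adjusted p (it gave Nags none), beside 4.04% called lower of all genes with one. The tools thus differ on whether any member passed the threshold of 0.1, and the direction of the 4 genes was the same in each. In 0 of 7 members did every induced mouse lie below every Etoh mouse, a pattern of 1.49% of all genes tested.

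Cps1, the entry enzyme, had the largest difference in CPM of the 7 genes. Its levels were 3860, 4231, 2461, 4014 and 3932 CPM in the ASAH+ Etoh-Dox mice and 5802, 4183, 6813 and 7176 CPM in the ASAH+ Etoh mice. In 19 of 20 pairs of mice the induced mouse was the lower, the exception being replicate 2 of ASAH+ Etoh, whose level fell among those of the induced group. The means were 3700 ± 706 (SD, n = 5) and 5994 ± 1340 CPM (n = 4), a log2 fold change of -0.70 ± 0.17 (SE) and a level 38.3% lower. The edgeR p was 0.00133 and its adjusted p 0.473, and the exact two-sided permutation p of this gene alone was 0.0159, where 0.00794 is the smallest that 5 against 4 mice allow. DESeq2 gave an adjusted p of 0.00747, and over all alternatives the adjusted p ran from 0.00747 to 0.991.

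Ass1 and Asl, the consecutive cytosolic enzymes that make arginine, were lower on average by similar amounts, but with overlap. Ass1 stood at 2978, 3707, 2117, 2855 and 3332 CPM in ASAH+ Etoh-Dox and at 3432, 3045, 4853 and 4828 CPM in ASAH+ Etoh mice. Its log2 fold change was -0.43 ± 0.18 (SE, edgeR p = 0.0277, adjusted p = 0.618, exact permutation p = 0.111). Only replicates 3 and 4 of ASAH+ Etoh were above all of the induced mice. For Asl the values were 507, 423, 289, 455 and 421 CPM in the induced and 558, 342, 717 and 717 CPM in the uninduced mice. Its log2 fold change was -0.48 ± 0.21 (SE, edgeR p = 0.0414, adjusted p = 0.658, exact permutation p = 0.159), and replicate 2 of ASAH+ Etoh was again among the induced mice.

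Slc25a15, the ornithine carrier, had as large a mean difference as Cps1 and far more scatter. Its values were 197, 218, 252, 351 and 265 CPM in the ASAH+ Etoh-Dox mice and 400, 258, 380 and 631 CPM in the ASAH+ Etoh mice. The induced mouse was lower in 18 of 20 pairs. The log2 fold change was -0.70 ± 0.30 (SE, edgeR p = 0.0358, adjusted p = 0.645, exact permutation p = 0.0476). Without replicate 4 of ASAH+ Etoh, the highest mouse, it was -0.44 ± 0.29 and no longer under an unadjusted p of 0.05. With the surrogate variable this difference was -0.15, and of the 7 members it was the 1 that moved most under that setting.

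For Otc, Slc25a13 and Nags the difference was not beyond the spread between mice in the fit of 3 group means. Otc, the enzyme that makes citrulline, had 577, 497, 479, 488 and 480 CPM in ASAH+ Etoh-Dox and 582, 459, 542 and 545 CPM in ASAH+ Etoh mice, with a log2 fold change of -0.08 ± 0.08 (SE, edgeR adjusted p = 0.871). A difference within 2 SE of this estimate spans -0.25 to 0.09. Slc25a13, the aspartate-glutamate carrier, had 243, 257, 256, 214 and 247 CPM against 272, 275, 281 and 240 CPM (-0.13 ± 0.09, edgeR adjusted p = 0.759). With the surrogate variable it was -0.22 ± 0.08, under an unadjusted edgeR p of 0.05 (adjusted p = 0.311). Nags had 55.1, 44.4, 48.6, 65.1 and 64.6 CPM against 51.1, 45.2, 56.6 and 53.7 CPM and was the only member with a higher mean in the induced mice (0.10 ± 0.13, edgeR adjusted p = 0.898), a direction that turned to -0.03 with the red cell level as a covariate. The groups of all 3 genes overlapped.

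**Figure D2:**
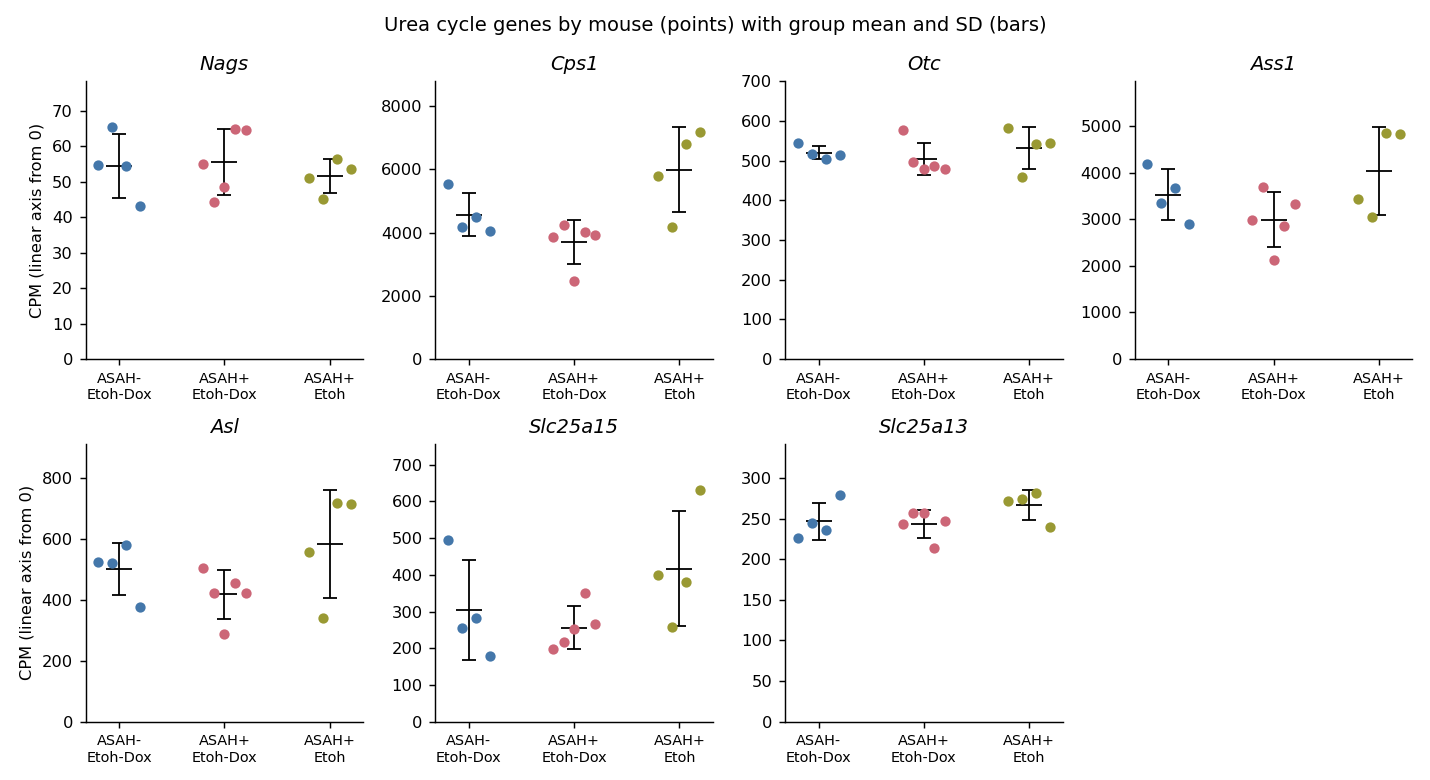
CPM of each urea cycle gene in every mouse (points, linear axis from 0) with the group mean and SD (bars), for 4 ASAH- Etoh-Dox, 5 ASAH+ Etoh-Dox and 4 ASAH+ Etoh mice. For Cps1 the induced mice lie at 2461 to 4231 CPM and 3 of the 4 Etoh mice at 5802 to 7176 CPM, while replicate 2 of ASAH+ Etoh, at 4183 CPM, lies within the induced range.

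The count of 4 genes rested on several single mice. It was 1 without replicate 3 of ASAH+ Etoh-Dox or replicate 4 of ASAH+ Etoh, and 2 without replicates 2 or 5 of ASAH+ Etoh-Dox or replicates 1 or 3 of ASAH+ Etoh, while Cps1 kept an unadjusted edgeR p under 0.05 in each of the 13 fits that left out 1 mouse. In the same comparison the 5 red cell markers were higher and 5 of 6 endothelial markers were lower. Of 15 genes of pericentral hepatocytes, 12 were below 0 (median -0.23) and 3 lower at that p, beside 3.24% of all genes. Their summed level was 11425 to 13151 CPM in ASAH+ Etoh-Dox and 14227 to 16086 CPM in ASAH+ Etoh mice, without overlap. Of 13 genes of periportal hepatocytes, 8 were below 0 (median -0.11) and 2 lower at that p. Of Kupffer cell markers 0 of 6 were below 0 (median 0.31), and of leukocyte markers 2 of 6 (0.48). In both lists 0 passed that p. With the summed red cell level as a covariate, chosen after the values were seen, Cps1 remained below that p (log2 fold change of -0.57 ± 0.22, SE, edgeR), 1 of 7, and the median was -0.37. Apart from the red cell covariate, the part of these markers and genes in the members' values was not tested.

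Between genotypes on the same diet, ASAH+ Etoh-Dox versus ASAH- Etoh-Dox, the members differed less. The median log2 fold change was -0.24, against 0.00 for all genes, and 6 of 7 were below 0. This median was -0.05 without replicate 1 of ASAH- Etoh-Dox, -0.13 without replicate 3 of ASAH+ Etoh-Dox and -0.05 with a surrogate variable. edgeR and limma-voom called 0 of 7 after adjustment (0.014% of all genes called by edgeR), and DESeq2 also called 0 (0.0316% of its genes were called lower). At an unadjusted edgeR p under 0.05, 0 of 7 were lower, where 1.57% of all genes were, and no member separated the groups (0.447% of all genes did so with lower levels). Of 6 endothelial markers, 4 were lower at that p in the same comparison, with 6 of 6 below 0 and a median of -0.43 (summed levels given above). Other cell markers were also lower on average, 6 of 6 for Kupffer cells (median -0.31), 5 of 5 for cholangiocytes (-0.35), 6 of 6 for stellate cells (-0.20) and 5 of 6 for leukocytes (-0.35), with 0, 0, 1 and 0 at that p. So were 5 of 5 red cell markers (-0.36, 0 at that p) and 5 of 6 hepatocyte markers (-0.14, 1 at that p). Of 15 genes of pericentral hepatocytes, 14 were below 0 (median -0.25) and 2 at that p, and their summed level was 11425 to 13151 CPM in ASAH+ Etoh-Dox and 13495 to 16915 CPM in ASAH- Etoh-Dox mice, without overlap. Of 13 genes of periportal hepatocytes, 7 were below 0 (median -0.00044). The part of these in the members' values was not tested.

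Cps1 in the ASAH- Etoh-Dox mice was at 5542, 4194, 4504 and 4045 CPM, and the induced mice were lower in 18 of 20 pairs (log2 fold change -0.31 ± 0.17, SE, edgeR p = 0.102, adjusted p = 1.00, exact permutation p = 0.0794). This difference was -0.18 without replicate 3 of ASAH+ Etoh-Dox and -0.19 without replicate 1 of ASAH- Etoh-Dox. Ass1 was at 4200, 3357, 3666 and 2895 CPM and Asl at 526, 523, 580 and 377 CPM, with log2 fold changes of -0.24 ± 0.18 and -0.26 ± 0.21 (SE). Of the ASAH- mice, replicates 2, 3 and 4 fell among the induced mice for Ass1 and replicate 4 did for Asl. Ass1 differed by only -0.13 without replicate 3 of ASAH+ Etoh-Dox or replicate 1 of ASAH- Etoh-Dox, and Asl by -0.14 without the former. Slc25a15 ranged from 178 to 496 CPM in the 4 ASAH- mice, wider than the 197 to 351 CPM of the induced mice, so its difference of -0.24 ± 0.30 was below its error, turned to 0.11 without replicate 1 of ASAH- Etoh-Dox and was -0.0056 with a surrogate variable. Otc (505 to 543 CPM), Slc25a13 (226 to 279 CPM) and Nags (43.2 to 65.4 CPM) had log2 fold changes of -0.04 ± 0.08, -0.02 ± 0.09 and 0.03 ± 0.13 (SE). The last 2 changed sign with single mice left out.

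The comparison of ASAH- Etoh-Dox with ASAH+ Etoh mice, in which neither group makes the transgene but only the first receives Dox, shares its groups with the comparisons above and is not independent of them. Its median log2 fold change over the members was -0.19, against 0.02 for all genes, with 6 of 7 below 0. Single mice moved this median both ways, to -0.11 without replicate 4 of ASAH- Etoh-Dox or replicate 3 of ASAH+ Etoh, to -0.12 without replicate 4 of ASAH+ Etoh and to -0.31 without replicate 2 of ASAH+ Etoh. With the red cell level as a covariate it was -0.13. edgeR and limma-voom called 0 of 7 (0.014% of all genes called by edgeR), DESeq2 called 0 (1.1% of its genes were called lower), 0 had an unadjusted edgeR p under 0.05 with a lower level in the fit of 3 group means (4.11% of all genes did), and 0 separated the groups with lower levels (2.4% did). Cps1 was nearest, at -0.39 ± 0.18 (SE, edgeR p = 0.0526, adjusted p = 0.554, exact permutation p = 0.143, where 0.0286 is the smallest possible). It fell below an unadjusted edgeR p of 0.05 without replicate 2 of ASAH+ Etoh (-0.53 ± 0.17), without replicate 1 of ASAH- Etoh-Dox (-0.51 ± 0.19) and without replicate 3 of ASAH+ Etoh-Dox (-0.41 ± 0.15), and of the fits that left out 1 mouse it was nearest to 0 without replicate 4 of ASAH+ Etoh (-0.31 ± 0.19). With the red cell level as a covariate it was -0.26 ± 0.24. It was also below that p in edgeR with DESeq2 size factors, on the groups compared alone, with no count filter and with Asah1 out of the library totals, and in DESeq2 (-0.40 to -0.41). Slc25a15 differed by -0.46 ± 0.32, and by -0.82 ± 0.28 without replicate 1 of ASAH- Etoh-Dox, when it also fell below that p. It was -0.21 ± 0.30 without replicate 4 of ASAH+ Etoh and -0.27 ± 0.31 without replicate 4 of ASAH- Etoh-Dox. With a surrogate variable it was -0.15 ± 0.16. Asl differed by -0.22 ± 0.22, and by -0.41 ± 0.18 without replicate 2 of ASAH+ Etoh, again below that p. It was -0.10 ± 0.23 without replicate 4 of ASAH- Etoh-Dox and -0.12 ± 0.23 without replicate 3 or replicate 4 of ASAH+ Etoh. Some markers of other cells were higher in the ASAH- Etoh-Dox mice at an unadjusted edgeR p under 0.05, beside 5.08% of all genes. These were all 5 red cell markers, 4 of 6 Kupffer cell markers (6 of 6 above 0, median 0.58), 2 of 6 stellate cell and 2 of 6 leukocyte markers. Of endothelial markers 4 of 6 were below 0 (median -0.11), with 0 at that p in either direction. Of cholangiocyte markers 0 of 5 were below 0 (median 0.29), and 0 passed that p. Of 6 hepatocyte markers 1 was below 0 (median 0.08), with 1 higher and 1 lower at that p. The Kupffer cell markers summed to 315 to 676 CPM in ASAH- Etoh-Dox and 246 to 313 CPM in ASAH+ Etoh mice, the stellate cell markers to 258 to 320 and 209 to 274 CPM, and the leukocyte markers to 11 to 21.3 and 9.95 to 12.5 CPM. Apart from the red cell covariate, their part in the members' values was not tested. For Cps1, Ass1, Asl and Slc25a15 the mean of the ASAH- Etoh-Dox mice lay between the means of the other groups. Whether Dox or the transgene set the lower levels of induced ASAH+ mice cannot be told apart from the ASAH+ mice alone.

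**Figure D3:**
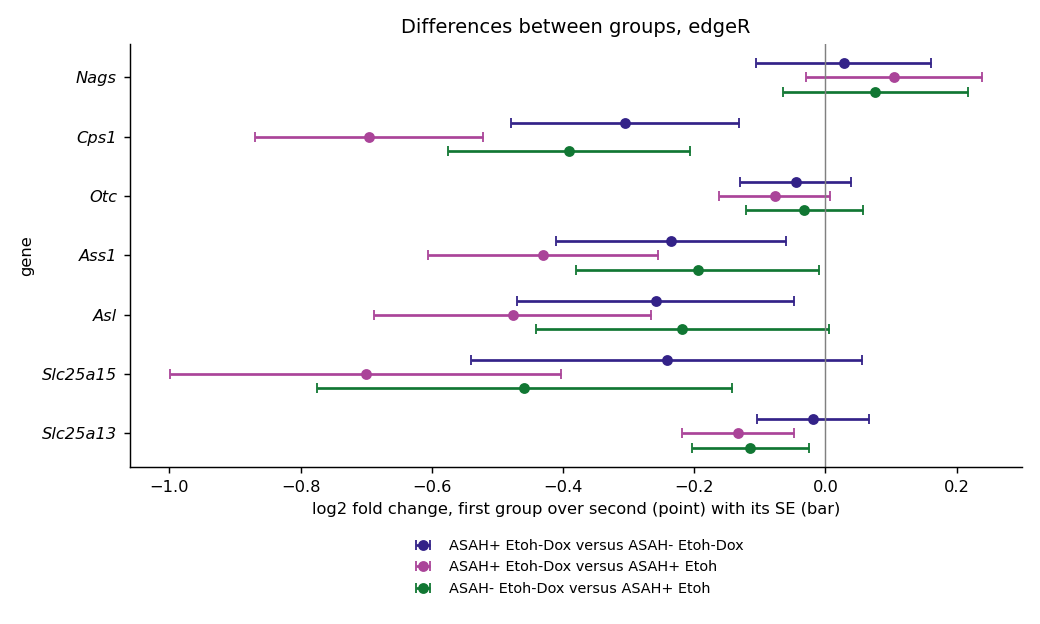
Log2 fold change (point) with its SE (bar) of each urea cycle gene in the 3 comparisons fitted by edgeR. Cps1 and Slc25a15 are at -0.70 for ASAH+ Etoh-Dox versus ASAH+ Etoh, and Otc, Nags and Slc25a13 lie within 0.14 of 0 in each comparison.

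The members differed in how much they varied among mice of 1 group. The pooled within-group SD of log2 CPM was 0.49 for Slc25a15, 0.37 for Asl, 0.30 for Cps1 and for Ass1, 0.22 for Nags, and 0.11 for Slc25a13 and for Otc. Among the 3586 genes with a mean log2 CPM above 5, of which the median SD was 0.16, Slc25a15 stood at percentile 95.3, Asl at 90.4, Cps1 at 85.3 and Ass1 at 85.0, against 26.7 for Slc25a13 and 24.7 for Otc. Slc25a15 spanned 3.55-fold between its lowest and highest mouse and Cps1 2.92-fold, whereas Otc spanned 1.27-fold and Slc25a13 1.31-fold. Otc and Cps1, enzymes of consecutive steps in the mitochondrion, thus lay far apart in spread.

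Cps1, Ass1, Asl and Slc25a15 varied together over the 13 mice, and Nags and Slc25a13 followed them less or not at all. The 6 pairs among these 4 genes had a median Pearson r of log2 CPM of 0.79, ranging from 0.63 to 0.93. The 15 pairs with Nags, Otc or Slc25a13 had a median of 0.12, with Otc and Asl the highest at 0.68. Otc followed the 4 genes in part, with r of 0.57, 0.44, 0.68 and 0.34 with Cps1, Ass1, Asl and Slc25a15. Its r with Asl was thus above the lowest among the 4 genes. Nags had r = 0.41 with Asl and 0.31 with Slc25a15, and 0.12 and 0.17 with Cps1 and Ass1, while Slc25a13 ranged from -0.32 to 0.07 with the 4 genes. Nags with Slc25a13 had r = -0.61, the lowest of all 21 pairs of members, and this pair was not tested. Over all pairs of genes with a mean log2 CPM above 5 the median was 0.03. The 4 genes were grouped after these values were seen, the points share group differences and library composition, and no test was made of the grouping. Of 5 relations between consecutive roles, Ass1 with Asl had r = 0.86 (rho = 0.79, permutation p = 0.00022 and 0.00202, adjusted p over the 5 relations 0.0011 and 0.0101). It was 0.71 without the 2 mice farthest from the median of Ass1 and 0.81 with group means removed.

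Cps1 with Otc had r = 0.57 (rho = 0.54, permutation p = 0.0374 and 0.0586). The adjusted permutation p of this pair was 0.0935 for r, under 0.1, and 0.146 for rho, above it. Without the 2 mice farthest from the median of the first gene its r was 0.50, and with group means removed 0.54. Otc with Slc25a15 had r = 0.34 (rho = 0.35, permutation p = 0.253 and 0.237, adjusted p 0.422 and 0.395), and 0.25 and 0.23 in those settings. Nags with Cps1, the activator's enzyme and its target, had r = 0.12 (rho = -0.04, permutation p = 0.699 and 0.892), and Slc25a13 with Ass1, the aspartate carrier and the enzyme that uses aspartate, had r = -0.02 (rho = 0.02, permutation p = 0.954 and 0.950). In the same settings the r of Nags with Cps1 was 0.04 and 0.40 and that of Slc25a13 with Ass1 was -0.50 and -0.38. The sign of these last 2 relations changed when single mice were left out.

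**Figure D4:**
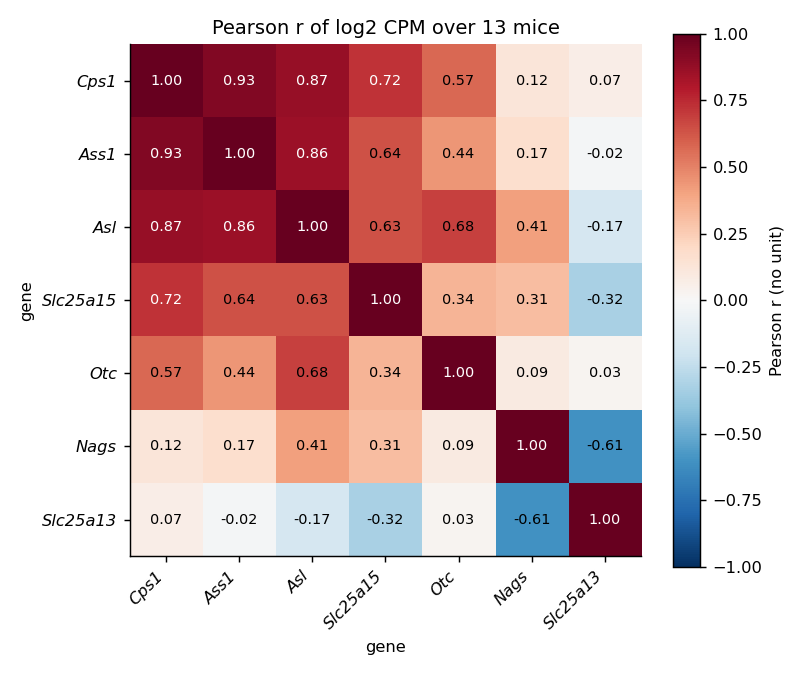
Pearson r of log2 CPM between each pair of urea cycle genes over 13 mice, with the genes that varied together placed first. The 6 pairs among Cps1, Ass1, Asl and Slc25a15 range from 0.63 to 0.93. Slc25a13 has no r above 0.07 with any other member and is at -0.61 with Nags.

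The livers also differed in their clock genes. The log2 ratio of Dbp to Arntl, clock-controlled genes that peak at opposite times of day, ran from -1.64 to 6.78 over the 13 mice, and the ranges of the groups overlapped. This ratio was chosen with earlier results of these data known. Slc25a15 was lower where the ratio was high (r = -0.53, rho = -0.60, permutation p = 0.0656 and 0.0351, adjusted p over the 7 members 0.230 and 0.246), and the r was -0.77 with group means removed and -0.63 without the 2 farthest mice. Slc25a13 was higher there (r = 0.58, rho = 0.48, permutation p = 0.0401 and 0.101, adjusted p 0.230 and 0.353), with r = 0.66 without the 2 farthest mice. Neither passed the adjustment, and the other 5 genes had r between -0.26 and 0.17. With single mice left out, the r of Cps1 ranged from -0.31 to 0.26 and that of Ass1 from -0.30 to 0.28. That of Asl ranged from -0.31 to 0.18 in the same way. Nags, at -0.26 over 13 mice, was at -0.49 without the 2 farthest mice. With the ratio as a covariate in edgeR, the Slc25a15 difference between ASAH+ Etoh-Dox and ASAH+ Etoh was -0.82 ± 0.19 (SE, adjusted p = 0.269), against the SE of 0.30 without it, and its adjusted p ran from 0.165 to 1.00 over the alternatives. That between ASAH- Etoh-Dox and ASAH+ Etoh was -0.60 ± 0.20 (edgeR adjusted p = 0.326, range 0.326 to 1.00).

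**Figure D5:**
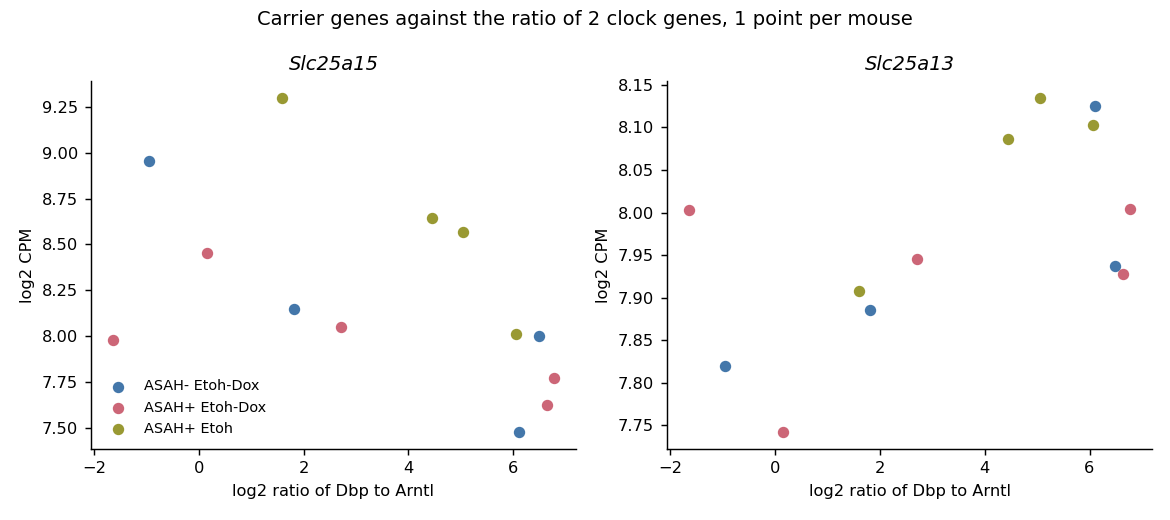
Log2 CPM of the ornithine carrier Slc25a15 and of the aspartate carrier Slc25a13 against the log2 ratio of Dbp to Arntl, 1 point per mouse and colours for the 3 groups. Over 13 mice Slc25a15 has r = -0.53 and Slc25a13 r = 0.58 with the ratio.

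Genes that feed or serve the cycle were followed in lists of accessory, ammonia and glutamate, amino acid breakdown and regulator genes, and edgeR and limma-voom called 0 of them in any comparison. DESeq2 on all 13 mice called 5 of the 60 to which it gave an adjusted p lower in ASAH+ Etoh-Dox versus ASAH+ Etoh mice (8.33%, beside 4.04% over all its genes), namely Hpd, Aass, Fh1, Slc38a4 and Slc7a2, and 0 in the other comparisons. For ASAH+ Etoh-Dox versus ASAH+ Etoh, 3 of 11 accessory genes tested, 4 of 24 of ammonia and glutamate handling, 5 of 32 of amino acid breakdown and 0 of 20 regulators were lower at an unadjusted edgeR p under 0.05, together 12 of 87 (13.8%) beside 3.24% of all genes, and 0 in any of these lists were higher, beside 4.05% of all genes. Their median log2 fold changes were -0.09, -0.16, -0.09 and -0.02, smaller in size than the -0.43 of the members. Between genotypes on Etoh-Dox the numbers lower at that p were 1, 0, 0 and 0 (1.15%, near the 1.57% of all genes), with 0 higher (1.29% of all genes). In ASAH- Etoh-Dox versus ASAH+ Etoh mice they were 1, 2, 2 and 0 (5.75%, near the 4.11% of all genes), with 0, 1, 0 and 1 higher (2.3%, beside 5.08% of all genes).

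In ASAH+ mice 4 of these 87 genes (4.6%) were lower with Dox at that p without overlap of the groups, as were 1.15% of all genes, and they are named by that rule. Hpd, 4-hydroxyphenylpyruvate dioxygenase of tyrosine breakdown, averaged 1970 ± 179 CPM in the induced (SD, n = 5) and 2688 ± 405 CPM in the Etoh mice (n = 4), a log2 fold change of -0.45 ± 0.11 (SE, edgeR adjusted p = 0.417). Slc38a4, an importer of neutral amino acids, averaged 1119 ± 140 and 1395 ± 71.1 CPM (-0.32 ± 0.09, edgeR adjusted p = 0.507), and its ASAH- Etoh-Dox mice, at 1141 ± 67.4 CPM, also lay wholly below the Etoh mice at that p, as the 1 gene of the 87 to do so (1.89% of all genes did). Over alternatives other than a mouse left out, the Slc38a4 difference from Etoh mice ranged from -0.37 to -0.19 for induced mice. For ASAH- Etoh-Dox mice it ranged from -0.33 to -0.16. Aqp9, a channel for glycerol and urea, averaged 429 ± 39.8 and 511 ± 53.8 CPM (-0.25 ± 0.10, edgeR adjusted p = 0.617). Slc25a12 (aralar), the other aspartate-glutamate carrier, was expressed at only 13.5 ± 1.24 and 17.0 ± 1.93 CPM (-0.32 ± 0.10, edgeR adjusted p = 0.526).

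Among the other genes tested, those whose log2 CPM over the 13 mice was most like the members' mean standardized level were Serpina1d (r = 0.92), Fh1 (0.92), Cyp2b10 (0.91), Gls2 (0.91) and Ivd (0.91). Fh1 is fumarase, Cyp2b10 a drug-inducible cytochrome P450, Gls2 the glutaminase of the liver, Ivd acts in leucine breakdown, and Serpina1d belongs to a family of near-identical antitrypsin genes among which reads are hard to assign. The most opposite were Eri2 (-0.89), Fabp2 (-0.89), Nup88 (-0.86), Serpina12 (-0.85) and Gsap (-0.84). Their mean levels were 5.38, 80.0, 22.6, 2.67 and 23.7 CPM, so Eri2 and Serpina12 were only weakly expressed. These 10 were picked for their r out of 14301 genes, so the r is a description and has no test. For ASAH+ Etoh-Dox versus ASAH+ Etoh, the log2 fold changes of the most like genes were -0.25, -0.55, -2.02, -0.46 and -0.19 in the order named. None was called by edgeR (adjusted p of 0.512, 0.505, 0.568, 0.554 and 0.666), and Cyp2b10 ranged from 14.1 to 275 CPM over the 13 mice. Since the members' mean itself differs between these groups, the direction of genes picked for following it is no separate result.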

How the data were processed

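Livers were flash frozen and stranded TruSeq libraries were sequenced as 100-base single reads. The authors assigned reads by salmon to GENCODE M19 transcripts (GRCm38.p6) and summed them to genes with tximport, and the deposited estimated counts are whole numbers without library scaling. Salmon divides shared reads by estimated abundance, which touches Ass1 and its pseudogene. Names and coordinates came from GENCODE M21 (53355 of 53392 identifiers matched).

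edgeR 4.0.16 (R 4.3.3) fitted 3 group means over 13 mice after filterByExpr and TMM, with robust quasi-likelihood F tests and Benjamini-Hochberg adjustment over 14317 genes at a threshold of 0.1. The SE of a log2 fold change was taken as its size over the root of F. Single genes had exact permutation tests on log2 CPM with a prior count of 2, and relations used 100000 permutations. At these depths counting error is small for every member, and it is a lower bound of technical error without molecular identifiers. Replicates are different mice, and no pair of libraries agreed within sampling noise.

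The members, lists and tests were chosen with earlier results of these data known. Beside the 7 members, list genes were named where an unadjusted p was under 0.05 without overlap of the groups, with the 5 genes of highest and 5 of lowest r with the members' mean. Alternatives were DESeq2 1.42.0 (on all mice, on the groups compared, without independent filtering), limma-voom, other scaling, filters, dispersion and threshold, covariates, a replicate block and each mouse left out. The code was tested on simulated data. No protein sequences were used here. A further gene of the list and the results that need it, among them a relation between consecutive roles, are not reported here, and counts and medians over members leave it out. Genes not reported here were also left out of the search for genes most like the members.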

Additional observations from a re-analysis of the deposited data

Results flagged for a closer look

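Of 21 sets of values (7 genes in 3 groups) examined for a sample far from the others, 2 had such a sample, and chance alone gives about 1 in 20. Cps1 in replicate 3 of ASAH+ Etoh-Dox was at 2461 CPM, while the nearest mouse of that group was at 3860 CPM and the highest at 4231 CPM, so the gap was 0.79 of the whole range. This mouse was also the lowest of all 13 for Ass1 and Asl. Otc in replicate 1 of ASAH+ Etoh-Dox was at 577 CPM, above the other mice of the group at 479 to 497 CPM, a gap of 0.82 of the range. Without replicate 3 the Cps1 difference between ASAH+ Etoh-Dox and ASAH+ Etoh mice was -0.59 (log2), against -0.70 with it. The cause of either value was not tested.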

How the results depend on the processing

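The number of members called was 0 in each comparison under edgeR, limma-voom and all settings of edgeR tried, except under DESeq2 for ASAH+ Etoh-Dox versus ASAH+ Etoh, where it was 1 (Cps1) on all 13 mice, 1 on the groups compared and 1 without independent filtering. DESeq2's adjusted p on all 13 mice covers only 1982 genes in that comparison. On simulated counts 19.3% of its calls were false, against 5.6% for edgeR and 6.4% for limma-voom. Of genes changed 1.6-fold there, DESeq2 recovered 45%, edgeR 42% and limma-voom 41%. Those counts were drawn with edgeR's dispersions and held no hidden variation between mice. The shares therefore need not hold for the real counts and do not decide between the tools on Cps1. Of the member values under settings other than leaving out a mouse, 288 kept their direction and side of the threshold, 3 passed it (all DESeq2) and 3 turned. These were Nags at -0.039 with the replicate block (ASAH+ versus ASAH- on Etoh-Dox) and at -0.029 and -0.060 with the red cell level as covariate (ASAH+ Etoh-Dox and ASAH- Etoh-Dox versus ASAH+ Etoh). Gls2 turned to 0.0067 with a surrogate variable (ASAH+ versus ASAH- on Etoh-Dox).

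With each mouse left out, values that turned ranged as follows for ASAH+ versus ASAH- on Etoh-Dox: Nags -0.068 to 0.13, Slc25a15 -0.43 to 0.11, Slc25a13 -0.051 to 0.046, Gls2 -0.19 to 0.028 and Eri2 -0.053 to 0.16. For ASAH- Etoh-Dox versus ASAH+ Etoh, Nags ranged from -0.024 to 0.17, Otc from -0.098 to 0.014 and Nup88 from -0.0095 to 0.094. The r of Nags with Cps1 ranged from -0.019 to 0.20 and that of Slc25a13 with Ass1 from -0.26 to 0.099. The r of Cps1, Ass1 and Asl with the ratio of Dbp to Arntl also changed sign (ranges given above).

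The replicate numbers of the titles belong to different mice. Deviations of same-numbered mice from their group means had a mean r of -0.05 over 12 pairs (-0.26 to 0.19), against 0.01 for other pairs, and 0 of the 12 mice with a same-numbered mouse in another group were closest to it. With the replicate block, 0 members were called in each comparison, and 1 of 7 had an unadjusted p under 0.05 for ASAH+ Etoh-Dox versus ASAH+ Etoh in place of 4. That count was 2 with no count filter (Cps1 and Ass1) and 2 with 1 surrogate variable (Cps1 and Slc25a13, the latter not among the 4). The number of mice, not depth, limits the precision: the members' SE ran from 0.08 to 0.32 (log2).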
